A study of Homo sapiens with 5 samples.

Results

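Integrins are cell surface receptors made of 1 alpha and 1 beta subunit, and laminins are secreted proteins made of 1 alpha, 1 beta and 1 gamma chain that form the sheet of basement membrane under an epithelium. The alpha subunit largely sets the ligand, such as collagen, laminin or proteins with the RGD motif, and the beta subunit carries the tail that binds the cytoskeleton. Epithelial cells of the prostate sit on laminin through the alpha 6 beta 4 receptor of hemidesmosomes and through beta 1 receptors, and prostate carcinomas often lose part of that set. The genes described here are all integrin subunits and laminin chains with a probe set that carries 1 gene symbol, found by their symbols (ITGA or ITGB with a number or with V, X, L, M, D or E, and LAMA, LAMB or LAMC with a number). ITGA2B was counted as a subunit. Antisense genes and binding partners were left out. The rule found 35 of 19775 genes, of which 18 encode integrin alpha subunits, 7 beta subunits and 10 laminin chains. Each gene was read from its probe set with the highest mean over the 5 arrays. ITGB6 and LAMA3 were not analysed here.

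The 5 Affymetrix arrays were hybridised with RNA of PC-3, a human prostate cancer cell line derived from a bone metastasis. The groups, from the labels, were spheroid culture (1 array), normal 2D culture (1 array), cells with an shRNA named shTRIB1-1 or shTRIB1-2 (1 array each, both labelled TRIB1 depletion) and cells with shGFP, an shRNA against GFP that serves as the control (1 array). The labels give no treatment, and a growth text that speaks only of dishes for all samples. How the spheroids were grown, whether the hairpin lines are clones and whether arrays came from separate cultures are not stated in the labels. Values are the log2 of the intensity made with RMA and are called levels, so a difference of 1 is 2-fold.

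Some facts of the arrays bear on all comparisons. The median intensity lay between 32.97 and 33.36 on the 5 arrays. The TRIB1 level was 11.91 on the shTRIB1-1 array and 11.76 on the shTRIB1-2 array, against 11.97 on the shGFP array, so the signal of the targeted gene was close to that of the control. The hairpin arrays are therefore named by their labels. The ratio of 5′ to 3′ actin signal, a measure of RNA and labelling quality, was 0.131 on the spheroid array and 0.184 on the 2D array, against 0.436 to 0.445 on the 3 hairpin arrays. The epithelial markers KRT8, KRT18, KRT19, EPCAM and CDH1 were at 9.39 or above on every array. The 4 leukocyte and 4 fibroblast markers with a probe set were below 6 on every array. KLK3, a luminal androgen-responsive gene, had the same level of 6.90 on all 5 arrays. KLK2, a second gene of that kind, was below 6 on every array, as were the basal markers KRT5 and KRT14.

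A level of 6 was used as the limit under which a signal is near background. Reaching it does not by itself show expression. KLK3, at 6.90 on all 5 arrays, and the platelet marker GP9, at 6.17 on the 2D array, also reached it. Of the 35 genes, 18 reached 6 on at least 1 array, 12 integrin subunits and 6 laminin chains. The subunits were the alpha genes ITGA1, ITGA2, ITGA3, ITGA5, ITGA6, ITGAE and ITGAV and the beta genes ITGB1, ITGB3, ITGB4, ITGB5 and ITGB8. The chains were LAMA4, LAMA5, LAMB1, LAMB2, LAMB3 and LAMC1. The other 17 stayed between 2.96 and 5.84 on all arrays. They were the collagen receptor subunits ITGA10 and ITGA11, the laminin receptor subunit ITGA7, ITGA8, the platelet subunit ITGA2B, ITGA4, ITGA9, the leukocyte subunits ITGAD, ITGAL, ITGAM, ITGAX, ITGB2 and ITGB7, and the chains LAMA1, LAMA2, LAMB4 and LAMC3. LAMA2, the muscle laminin chain, varied most among them, at 5.84 on the spheroid array and 5.09 on the 2D array, and at 4.81, 5.42 and 5.24 on the shTRIB1-1, shTRIB1-2 and shGFP arrays. A probe set's level depends on its probes, so levels are compared between arrays and not between genes.

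**Figure D1:**
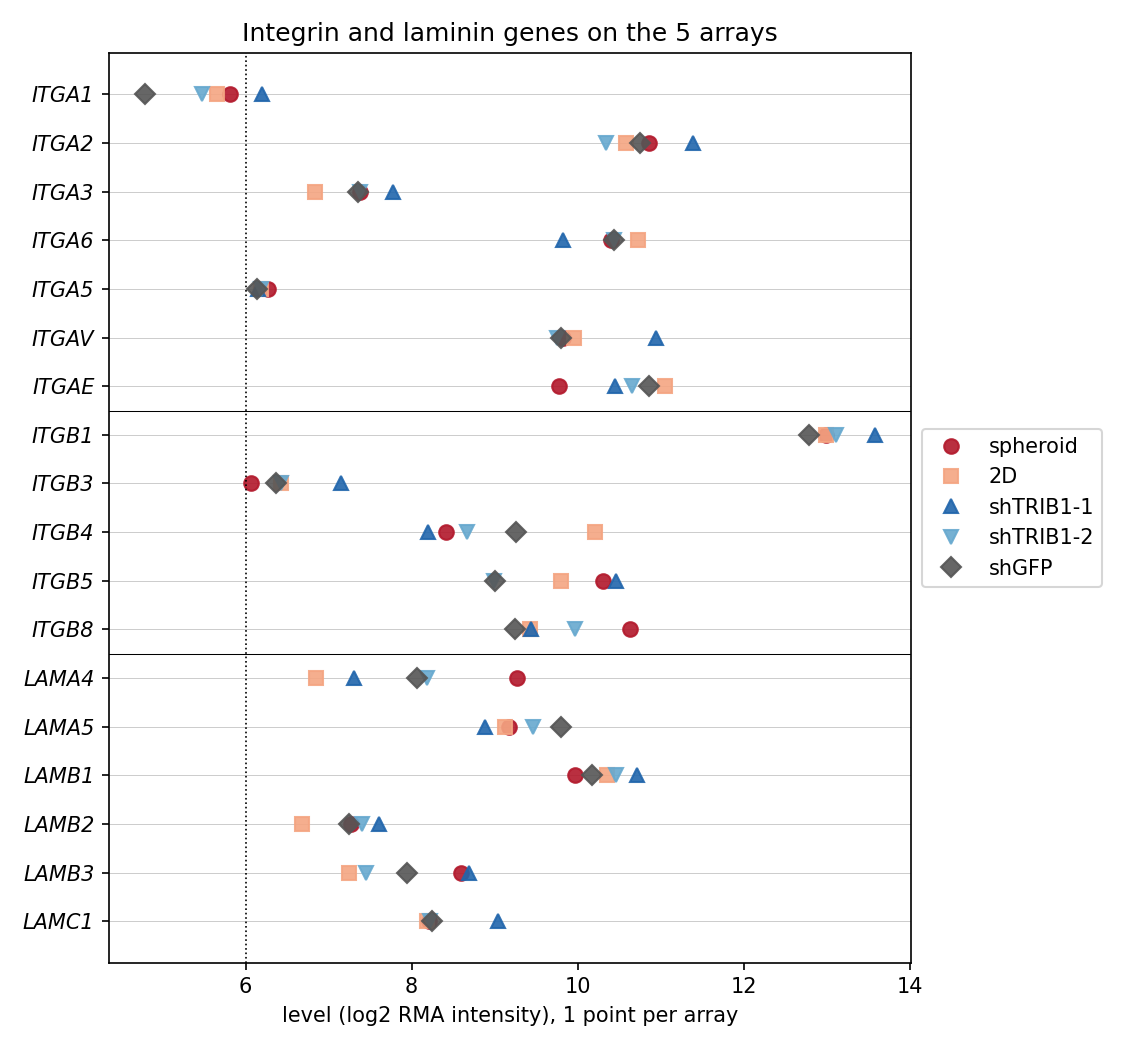
Levels (log2 RMA intensity) of the 18 integrin and laminin genes that reached 6 on at least 1 array, with 1 point per array and a dotted line at 6. The shTRIB1-1 array holds the highest point in 11 of the 18 rows, a count that was not made over all genes. ITGA1 is among the 18 only through that array. The spheroid array stands alone on the right for ITGB8 and LAMA4 and on the left for ITGAE.

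The comparison of spheroid with 2D culture addresses which genes differ with growth in 3 dimensions. LAMA4, LAMB3 and ITGB8 were at least 2-fold higher on the spheroid array, and ITGB4 and ITGAE were at least 2-fold lower. That is 3 and 2 of the 17 genes that reached 6 on either array, where 5.05% and 5.23% of 10570 genes passed the same limits upwards and downwards. The median difference over the 17 genes was 0.049, with 10 higher, 6 lower and 1 equal, and over all 10570 genes it was -0.0083. The median size of the difference, whatever its sign, was 0.38 for the 17 genes and 0.30 for all genes. Each culture has 1 array, so none of these differences has a replicate check or a test. In a bulk culture, a change in the share of cells of one kind and a change in RNA per cell cannot be told apart.

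**Figure D2:**
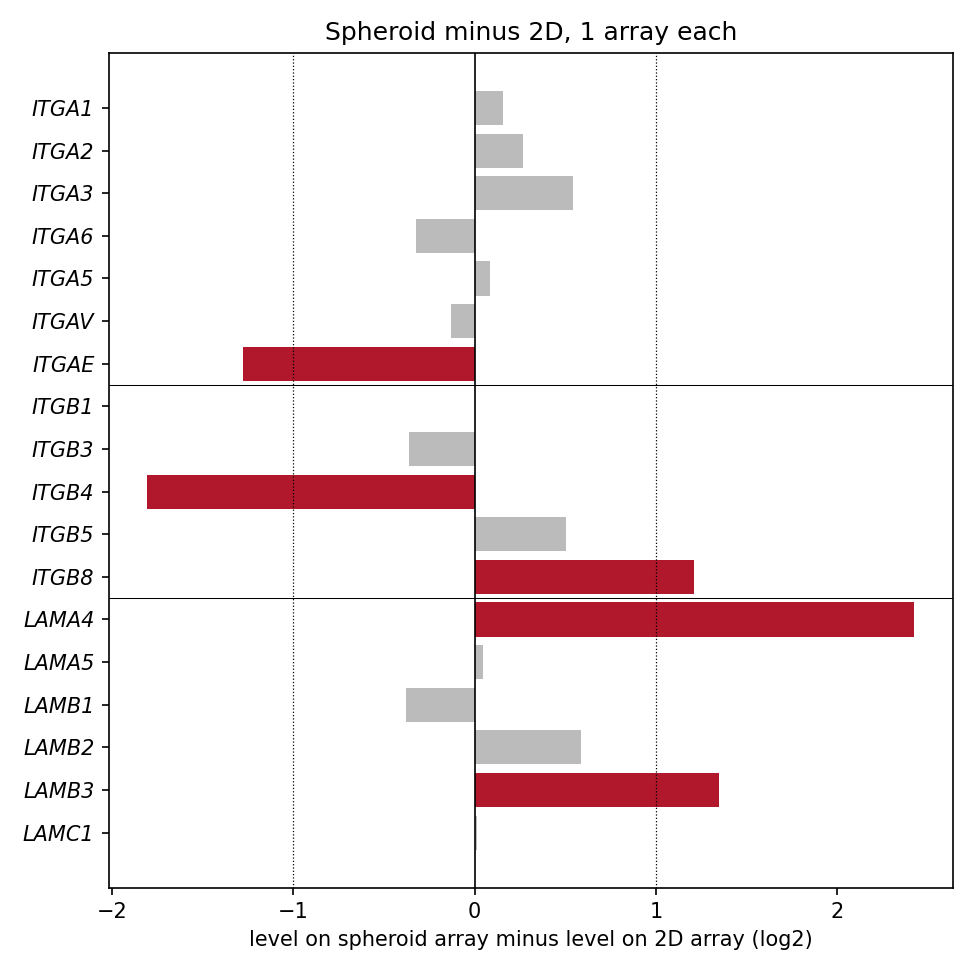
Level on the spheroid array minus level on the 2D array (log2, 1 array each) for the 18 genes, with dotted lines at a 2-fold difference and red bars at or past it. LAMA4 reaches 2.42 on the right and ITGB4 -1.80 on the left, and ITGA1 is drawn although it was below 6 on both arrays.

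LAMA4 encodes the alpha 4 chain of laminins found in vessels, muscle and fat, and showed the widest spread over arrays. Its level was 9.27 on the spheroid array and 6.85 on the 2D array, a difference of 2.42, or 5.37-fold. The hairpin arrays lay between these, at 7.31 for shTRIB1-1, 8.19 for shTRIB1-2 and 8.06 for shGFP. Of its 3 probe sets that reached 6, all were higher on the spheroid array, by 1.19 to 2.42. The shGFP array itself exceeded the 2D array by 1.21, so the controls of the 2 comparisons were themselves past 2-fold apart. Against the mean of 2D and shGFP the spheroid difference was 1.82, and taking the median of the gene's probe sets it was 1.21. The other chains that join alpha 4 in laminins did not pass the 2-fold limit. LAMB1, the beta 1 chain, was at 9.97 on the spheroid array and 10.35 on the 2D array, and LAMC1, the common gamma 1 chain, at 8.20 and 8.19. Endothelial markers were read beside this gene because vessels make alpha 4 laminins. CDH5, VWF and KDR were below 6 on all arrays, whereas PECAM1 was at 9.53 on the spheroid array and 7.57 on the 2D array. The log2 of the summed intensity of the 4 endothelial markers was 9.64 on the spheroid array and 7.98 on the 2D array, a difference carried by PECAM1. CDH5, VWF and KDR differed by -0.07, -0.13 and 0.12. The markers as a set therefore did not rise. Whether the LAMA4 and PECAM1 differences are linked was not tested.

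LAMB3 encodes the beta 3 chain, which occurs in the laminin that anchors epithelial cells at hemidesmosomes. Its level was 8.59 on the spheroid array and 7.24 on the 2D array, a difference of 1.35 (2.55-fold). The difference was 1.00 against the mean of 2D and shGFP, just under 2-fold, and it rests on 1 probe set. LAMB2, the beta 2 chain, was at 7.27 on the spheroid array and 6.68 on the 2D array, a smaller difference of 0.59. LAMA5, the alpha 5 chain of most adult epithelial basement membranes, was at 9.17 on the spheroid array and 9.12 on the 2D array. Of the 6 laminin genes, 2 were past 2-fold upwards, where 5.05% of 10570 genes were. LAMB1 was lower, with a difference of -0.38.

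ITGB8 pairs only with alpha V and is known for the release of active TGF-beta from its latent form. Its level was 10.63 on the spheroid array and 9.42 on the 2D array, a difference of 1.21 (2.31-fold). The hairpin arrays had 9.44, 9.96 and 9.24 for shTRIB1-1, shTRIB1-2 and shGFP, so the spheroid array held the highest of the 5 values. Its partner ITGAV, the alpha V subunit, was at 9.82 on the spheroid array and 9.95 on the 2D array. ITGB5, another alpha V partner and a vitronectin receptor subunit, was at 10.31 on the spheroid array and 9.80 on the 2D array. That difference of 0.51 varied with the probe set, since the 3 that reached 6 gave 0.42 to 1.68, all higher on the spheroid array. Taking the median of its probe sets, ITGB5 was past 2-fold at 1.05, and without the less specific probe sets ending in _s_at or _x_at at 1.68. ITGB3, the beta 3 subunit of a further vitronectin receptor, was at 6.07 on the spheroid array and 6.43 on the 2D array, close to background on both.

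ITGB4 encodes the beta 4 subunit, whose long tail binds plectin in hemidesmosomes. Its level was 8.41 on the spheroid array and 10.21 on the 2D array, a difference of -1.80 (3.49-fold). The 2D array was the highest of all 5, since shTRIB1-1 had 8.19, shTRIB1-2 8.66 and shGFP 9.26. Against the mean of 2D and shGFP the difference was -1.33. Only 1 of the 5 ITGB4 probe sets reached 6, so no other probe set at that level checks it. ITGA6, the only alpha subunit that pairs with beta 4, was at 10.40 on the spheroid array and 10.72 on the 2D array, a difference of -0.32, and its second probe set gave -0.46. ITGA3, the other laminin receptor alpha subunit that reached 6, was at 7.37 on the spheroid array and 6.83 on the 2D array.

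ITGAE encodes alpha E, the CD103 subunit by which T cells in epithelium bind E-cadherin, with beta 7 as its partner. Its level was 9.77 on the spheroid array and 11.05 on the 2D array, a difference of -1.28 (2.42-fold), and the spheroid value was the lowest of the 5. The partner ITGB7 was below 6 on every array, at 5.41 on the spheroid array and 5.69 on the 2D array. The leukocyte markers PTPRC, CD14, CD3E and LYZ were also below 6 everywhere, with a log2 summed intensity of 6.38 on the spheroid array and 6.24 on the 2D array. In the RefSeq gene table the mitotic kinase gene HASPIN lies inside ITGAE. HASPIN was chosen after its values were seen, and was at 5.02 on the spheroid array and 6.69 on the 2D array, a difference of -1.67, so both genes of the locus were lower. Whether the ITGAE probe set reads RNA of one gene or of both was not tested.

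The remaining subunits stayed close to their 2D level on the spheroid array. ITGB1, the partner of most alpha subunits, was at 12.98 on both, and its other 2 probe sets above 6 gave -0.20 and -0.28. ITGA2, a collagen receptor subunit, was at 10.85 on the spheroid array and 10.58 on the 2D array. ITGA5, the fibronectin receptor subunit, was at 6.27 and 6.18 on the same arrays, and ITGA1, a second collagen receptor subunit, at 5.81 and 5.66.

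Because LAMA4, LAMB3, ITGB8 and ITGAE differed 2-fold between the cultures, the 250 bases before their RefSeq starts (GRCh38.p14) are shown for comparison, read 5′ to 3′ along the gene. Of the 5 genes past 2-fold, 4 were matched in the RefSeq promoter table. LAMB3 has 3 listed starts, of which start 1 and start 3 are shown because start 2 overlaps start 1. Capitals mark a GC box (GGGCGG, or CCGCCC on the other strand) or an AP-1 motif (TGANTCA, both strands). The window of LAMA4 is chr6:112254568-112254817 (minus strand), of ITGB8 chr7:20330650-20330899 (plus strand), of LAMB3 chr1:209652426-209652675 and chr1:209651375-209651624 (minus strand) and of ITGAE chr17:3801189-3801438 (minus strand).
LAMA4: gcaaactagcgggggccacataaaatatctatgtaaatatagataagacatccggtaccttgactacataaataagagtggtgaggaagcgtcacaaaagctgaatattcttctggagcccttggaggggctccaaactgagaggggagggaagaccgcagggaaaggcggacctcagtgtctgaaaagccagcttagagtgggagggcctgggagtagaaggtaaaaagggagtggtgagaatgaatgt
ITGB8: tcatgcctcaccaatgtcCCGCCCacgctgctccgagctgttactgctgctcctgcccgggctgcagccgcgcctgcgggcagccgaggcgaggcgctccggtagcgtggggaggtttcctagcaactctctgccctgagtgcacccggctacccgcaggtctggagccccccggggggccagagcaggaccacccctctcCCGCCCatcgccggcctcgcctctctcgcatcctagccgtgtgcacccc
LAMB3 start 1: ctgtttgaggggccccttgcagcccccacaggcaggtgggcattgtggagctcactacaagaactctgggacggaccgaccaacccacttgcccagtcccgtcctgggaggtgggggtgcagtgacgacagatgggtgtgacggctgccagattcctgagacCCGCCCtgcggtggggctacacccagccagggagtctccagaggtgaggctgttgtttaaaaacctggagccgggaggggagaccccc
LAMB3 start 3: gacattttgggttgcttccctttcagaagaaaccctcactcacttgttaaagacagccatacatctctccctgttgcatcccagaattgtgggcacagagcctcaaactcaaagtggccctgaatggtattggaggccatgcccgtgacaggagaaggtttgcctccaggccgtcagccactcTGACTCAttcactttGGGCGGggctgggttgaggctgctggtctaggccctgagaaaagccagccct
ITGAE: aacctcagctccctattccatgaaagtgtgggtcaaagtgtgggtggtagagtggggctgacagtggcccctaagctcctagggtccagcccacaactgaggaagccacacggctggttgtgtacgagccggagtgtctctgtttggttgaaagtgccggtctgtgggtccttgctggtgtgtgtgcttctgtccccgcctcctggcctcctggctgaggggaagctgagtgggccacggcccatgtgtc
These windows share none of the searched motifs across all 4 genes. The ITGB8 window holds 2 GC boxes, and each LAMB3 window holds 1, whereas 42.6% of the 35116 windows in the table hold at least 1. The AP-1 motif occurs once, in the window of LAMB3 start 3 at positions -67 to -61 from the start, and in 6.57% of all windows. The E-box (CACGTG) and the TATA letters (TATAAA), each searched on both strands, are in none of the shown windows and in 6.34% and 10.7% of all windows. By base composition LAMA4, with 48.4% G and C, lay under the median of 58% over all windows, and ITGB8, with 71.2%, above it. A match of letters is a description and not a bound site.

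The hairpin arrays were compared with the shGFP array to ask which genes depend on TRIB1. The integrin and laminin genes differed from the control by larger sizes on the shTRIB1-1 array than on the shTRIB1-2 array. On shTRIB1-1, ITGB5, ITGA1 and ITGAV were at least 2-fold higher than on shGFP and ITGB4 at least 2-fold lower, 3 and 1 of the 18 genes, where 2.00% and 1.86% of 10522 genes passed these limits. Of these, ITGA1 was below 6 on the other 4 arrays and entered the comparison through shTRIB1-1, the array where it was high. On shTRIB1-2, 0 of the 18 passed in either direction, where 1.34% of all genes were 2-fold higher and 0.817% lower. On both arrays together, 0 of the 18 passed, where 0.361% were higher and 0.0855% lower. The median size of the difference over the 18 genes was 0.75 on shTRIB1-1 and 0.18 on shTRIB1-2, whereas over all genes it was 0.20 and 0.17. A total of 16 of the 18 genes differed more on shTRIB1-1 than on shTRIB1-2. Of the 18, 8 were higher on both arrays, 3 were lower on both, 6 had opposite signs and ITGA6 had a difference of 0 on shTRIB1-2. The counts by larger array and by sign were not made over all genes, and all 18 genes share the single shGFP array.

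**Figure D3:**
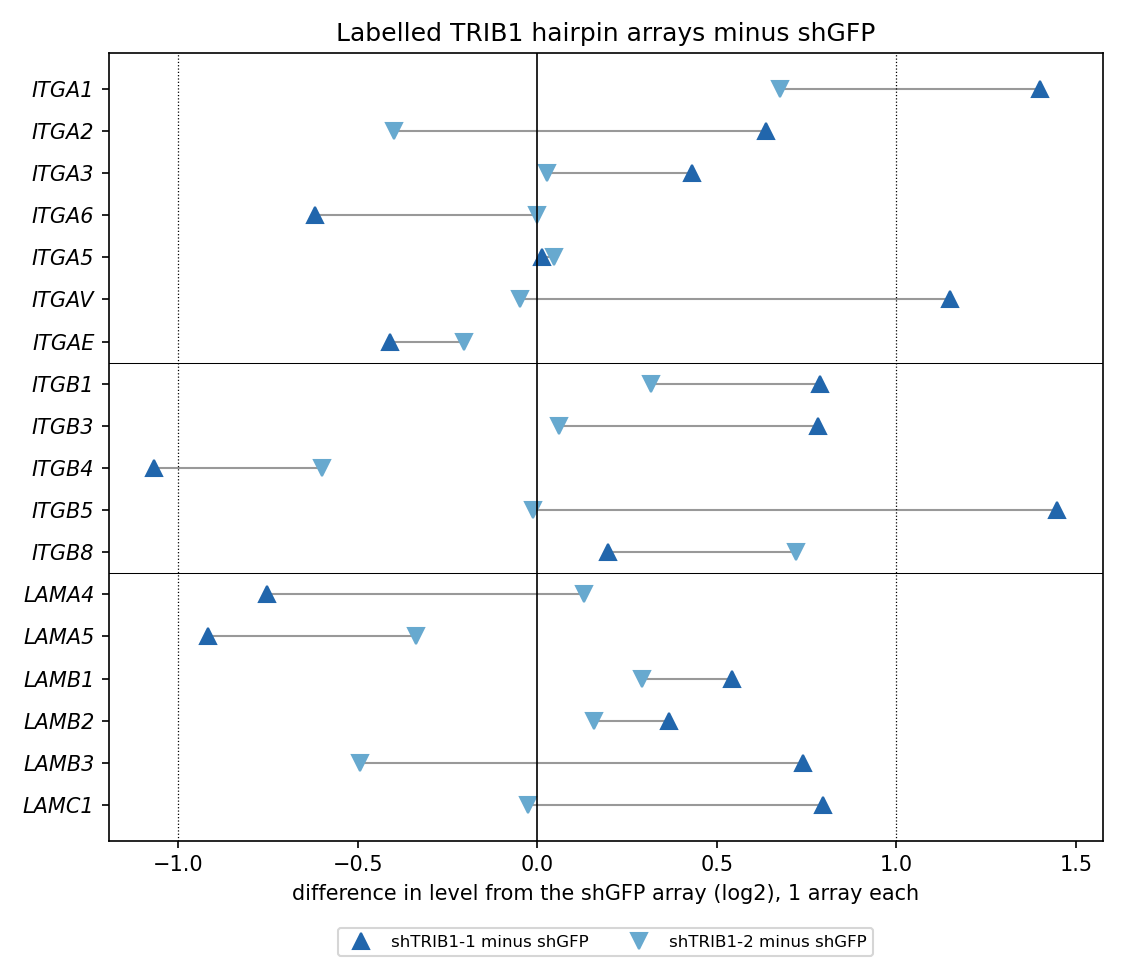
Level on the shTRIB1-1 array (dark, pointing up) and on the shTRIB1-2 array (light, pointing down), each minus the level on the single shGFP array (log2), for the 18 genes, with dotted lines at a 2-fold difference. The dark points reach 1.45 for ITGB5 and -1.07 for ITGB4, while the light points stay between -0.60 and 0.72.

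Limma with an intensity trend, fitted on the 3 hairpin arrays, called 0 of 10522 genes after Benjamini-Hochberg adjustment (0% of those tested). The lowest adjusted p over all genes was 0.951, and 0.557 to 0.991 over the alternative settings. Without adjustment 356 genes (3.38%) had a p under 0.05, among them 0 of the 18 integrin and laminin genes. The fit has 1 residual degree of freedom, from the distance between the 2 labelled hairpin arrays. The p-values and the SD values below measure only the spread between these arrays, which carry 2 differently named hairpins. An n of 2 therefore counts hairpins with 1 array each, and not replicates of one condition. Technical spread and a difference between the hairpins cannot be told apart. The SD values also do not hold the spread of the lone shGFP array.

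Subunits of the alpha V receptors for vitronectin were higher on shTRIB1-1 and near the control on shTRIB1-2. ITGAV was at 10.94 on shTRIB1-1 and 9.75 on shTRIB1-2, against 9.79 on shGFP. ITGB5 was at 10.45 on shTRIB1-1 and 8.99 on shTRIB1-2, against 9.01 on shGFP. The differences from shGFP were 1.15 and -0.05 for ITGAV and 1.45 and -0.01 for ITGB5, so the hairpins lay more than 2-fold apart for each gene. For ITGB5 the mean was 0.72 ± 1.03 (SD, n = 2; limma adjusted p = 0.958). Its 3 probe sets above 6 were all higher on shTRIB1-1, by 0.99 to 1.82, and all lower on shTRIB1-2, with differences of -0.01 to -1.15. ITGB3 was at 7.15 on shTRIB1-1 and 6.42 on shTRIB1-2, against 6.36 on shGFP. Its second probe set gave 1.77 on shTRIB1-1. That probe set was below 6 on every other array, with 5.38 on shGFP, and reached 6 only through shTRIB1-1, where it was high. It is therefore no independent check of the ITGB3 difference. ITGA5 was nearly the same on all, at 6.15, 6.18 and 6.14 on shTRIB1-1, shTRIB1-2 and shGFP.

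Of the collagen receptor subunits and their beta 1 partner, ITGA1 alone was past 2-fold by the probe set used for each gene, on shTRIB1-1. ITGB1 was at 13.57 on shTRIB1-1 and 13.10 on shTRIB1-2, against 12.79 on shGFP, a mean difference of 0.55 ± 0.33 (SD, n = 2; limma adjusted p = 0.951). Both labelled arrays were higher than shGFP, and the 3 probe sets above 6 gave 0.79 to 1.34 on shTRIB1-1 and 0.32 to 0.47 on shTRIB1-2. The ITGB1 probe sets above 6 other than the one used gave 1.29 and 1.34 on shTRIB1-1, past 2-fold. ITGA1 was at 6.19 on shTRIB1-1 and 5.47 on shTRIB1-2, against 4.79 on shGFP, a mean of 1.04 ± 0.51 (SD, n = 2; limma adjusted p = 0.951). The ITGA1 values on shTRIB1-2 and shGFP are both below 6, so its mean rests on signals near background. ITGA1 entered the comparison only through shTRIB1-1, where it was high. Its shGFP value is the lowest of the 5, and 2D had 5.66. ITGA2 was at 11.38 on shTRIB1-1 and 10.34 on shTRIB1-2, against 10.74 on shGFP, and both of its probe sets placed shGFP between the hairpins.

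Of the laminin receptor subunits, ITGB4 alone was past 2-fold, on shTRIB1-1. ITGB4 was at 8.19 on shTRIB1-1 and 8.66 on shTRIB1-2, against 9.26 on shGFP. Both labelled arrays were below shGFP, by -1.07 and -0.60, a mean of -0.83 ± 0.33 (SD, n = 2), which limma did not call (adjusted p = 0.951). ITGA6 was at 9.82 on shTRIB1-1 and 10.44 on shTRIB1-2, against 10.44 on shGFP, and its second probe set gave -0.77 and 0.01. ITGA3 was at 7.78 on shTRIB1-1 and 7.37 on shTRIB1-2, against 7.35 on shGFP, so this laminin receptor subunit had the opposite sign on shTRIB1-1. ITGB8 was one of the 2 genes with the larger difference on shTRIB1-2, at 9.44 on shTRIB1-1 and 9.96 on shTRIB1-2, against 9.24 on shGFP. ITGAE was at 10.45 and 10.66 on shTRIB1-1 and shTRIB1-2, against 10.86 on shGFP, and ITGB7 differed by 0.00 and 0.01.

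Of the 6 laminin chains, 0 were past 2-fold against shGFP on either labelled hairpin array. Over all 10522 genes, 2.00% were 2-fold higher and 1.86% lower on shTRIB1-1, and 1.34% and 0.817% on shTRIB1-2. The gamma 1 chain LAMC1 was at 9.04 on shTRIB1-1 and 8.22 on shTRIB1-2, against 8.24 on shGFP. LAMB1 was at 10.71 on shTRIB1-1 and 10.46 on shTRIB1-2, against 10.17 on shGFP, higher on both by a mean of 0.42 ± 0.18 (SD, n = 2; limma adjusted p = 0.951). The alpha 5 chain, which assembles with these 2, had the opposite sign. LAMA5 was at 8.88 on shTRIB1-1 and 9.46 on shTRIB1-2, against 9.80 on shGFP, a mean of -0.63 ± 0.41 (SD, n = 2; limma adjusted p = 0.951). LAMB3 was at 8.69 on shTRIB1-1 and 7.45 on shTRIB1-2, against 7.95 on shGFP, and LAMA4 at 7.31 and 8.19, against 8.06. For LAMB3 and LAMA4 the shGFP array lay between the hairpins. LAMB2 was at 7.61 on shTRIB1-1 and 7.40 on shTRIB1-2, against 7.24 on shGFP.

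**Figure D4:**
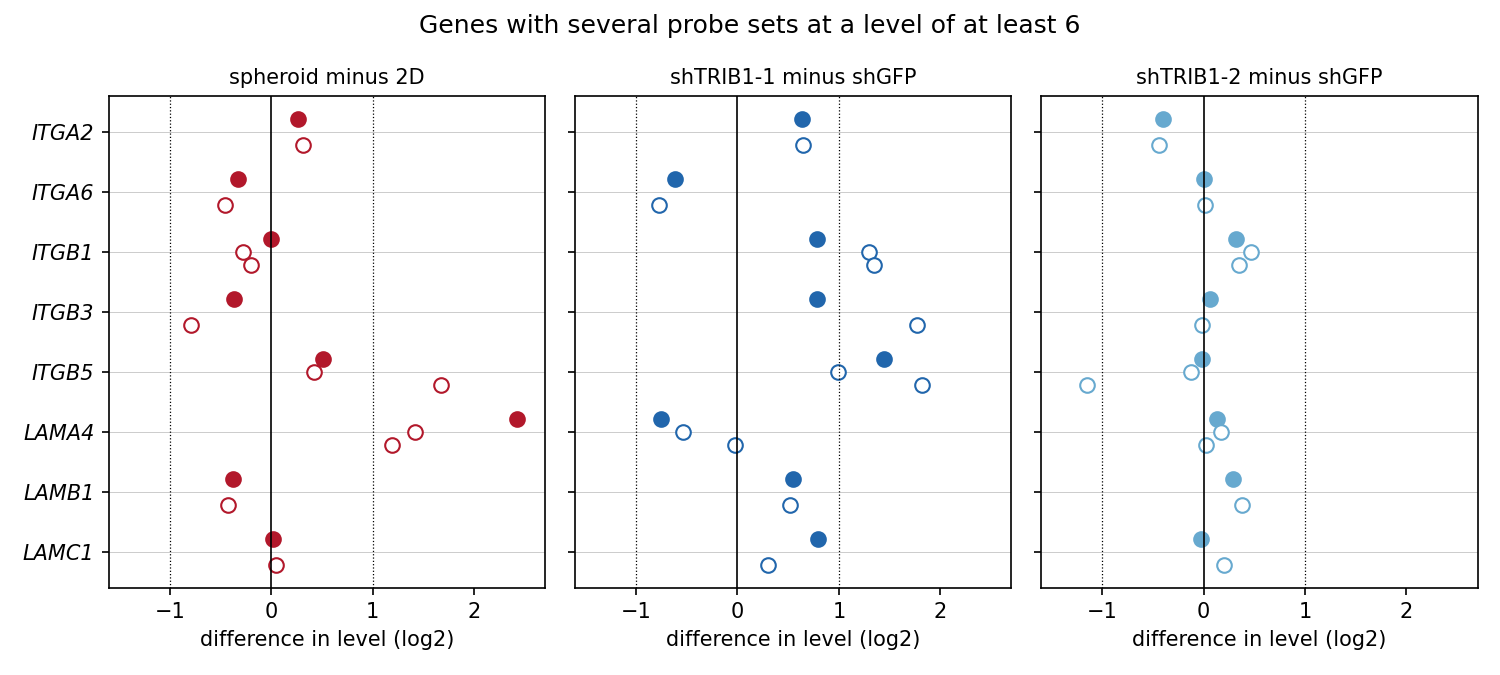
Differences in level (log2) for each probe set that reached 6, for the 8 genes with more than 1 of them, as spheroid minus 2D (left), shTRIB1-1 minus shGFP (middle) and shTRIB1-2 minus shGFP (right), with filled points for the probe set used in the text and open points for the others. The 3 ITGB5 points spread from 0.42 to 1.68 on the left, lie between 0.99 and 1.82 in the middle and lie at or below 0 on the right.

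Set directly against each other, the hairpin arrays separated ITGB5, LAMB3, ITGAV and ITGA2. On shTRIB1-1 these 4 of the 18 genes were at least 2-fold higher than on shTRIB1-2, by 1.46 for ITGB5, 1.24 for LAMB3, 1.20 for ITGAV and 1.04 for ITGA2, where 2.01% of 10522 genes were. In the other direction 0 of the 18 passed 2-fold, where 3.04% of all genes did, and the widest such difference was that of LAMA4 at -0.88. With 1 array per hairpin these differences have no test.

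The shGFP and 2D arrays are the controls of the 2 comparisons and come from one line, although the shGFP labels give no culture form. Their difference holds the spread between separate arrays and any effect of the shGFP hairpin, which cannot be told apart. LAMA4 was the 1 gene of 17 that was at least 2-fold higher on shGFP, where 2.13% of 10450 genes were, and 0 were 2-fold lower, where 2.11% were. ITGB4 (-0.95), ITGA1 (-0.86) and ITGB5 (-0.80) were lower on shGFP, and LAMB3 (0.71), LAMA5 (0.68), LAMB2 (0.56) and ITGA3 (0.52) were higher. These sizes reach those of several spheroid differences above. The actin 5′ to 3′ ratio also separates shGFP (0.436) from 2D (0.184), and its part in these differences was not tested.

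Genes that link integrins to the cell were read from a list of 50, of which 44 had a probe set. Of 34 that reached 6 on the spheroid or 2D array, NTN4 was past 2-fold upwards on the spheroid array and FERMT1, TNS3 and ITGB3BP downwards (1 and 3), where 5.05% and 5.23% of all genes were past these limits, and the median difference was -0.042. NTN4, a laminin-related netrin of basement membranes, was at 8.41 on the spheroid array and 7.14 on the 2D array. FERMT1, the epithelial kindlin that activates beta subunit tails, was at 8.62 on the spheroid array and 10.43 on the 2D array. TNS3, a tensin that binds beta tails to actin, was at 9.61 and 10.65 on the same arrays, and ITGB3BP, named for binding beta 3, at 9.31 and 10.32. Of the 8 hemidesmosome and integrin-associated membrane genes, 0 were past 2-fold.

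On the hairpin arrays, 0 of 37 linking genes were 2-fold higher or lower on both, where 0.361% and 0.0855% of all genes were. FERMT2, a widespread kindlin named here after its values were seen, was at 12.42 on shTRIB1-1 and 11.88 on shTRIB1-2, against 11.22 on shGFP. NTN4 was at 9.46 on shTRIB1-1 and 8.85 on shTRIB1-2, against 8.45 on shGFP. These 2 were 2-fold higher on shTRIB1-1, where 2.00% of all genes were, and 0 were on shTRIB1-2, where 1.34% were. FERMT1 was at 9.94 on shTRIB1-1 and 9.33 on shTRIB1-2, against 10.10 on shGFP. The medians over the 37 genes were 0.13 on shTRIB1-1 and 0.10 on shTRIB1-2.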

How the data were processed

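RNA of PC-3 was measured on 5 Affymetrix arrays, from 100 ng of total RNA per the labels. The deposited probe set intensity values were made with RMA per the submitters' processing notes, and their size shows a linear scale. Not given in the sources used here are the RMA version and the chip definition. Quantile normalization in RMA would hide a shift of most genes one way. Of 54675 probe sets, 41097 carried 1 symbol in the platform annotation, 1801 several and 11777 none. The Entrez identifiers of 41043 matched RefSeq (GRCh38.p14), which updated 0 symbols.

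Levels are log2 intensities with no pseudocount. A gene entered a comparison at a level of at least 6 (intensity 64) on any compared array, and 2-fold was the limit for counting. Limma 3.58.1 in R 4.3.3 (lmFit, eBayes with trend, Benjamini-Hochberg at 0.05) compared both shTRIB1 arrays with shGFP across all genes. Samples were grouped by their titles, and 1 array per condition allowed no test of spheroid against 2D. Members at 6 or above on any array are given with every value, and linking genes are named where 2-fold different between spheroid and 2D or on both labelled hairpin arrays. Other filters, probe set rules, an added constant, another reference and each hairpin array left out were tried. The members and lists were chosen with earlier results of these data known. Depth does not apply to arrays, and their number limits the precision.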

Additional observations from a re-analysis of the deposited data

How the results depend on the processing

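Alternatives were the level filter (none, or 8), the median of each gene's probe sets, leaving out probe sets ending in _s_at or _x_at, adding 16 to the intensity, the mean of shGFP and 2D as the reference, limma without the trend, and leaving out each hairpin array. Limma called 0 genes in each of its fits (a hairpin left out leaves no residual degree of freedom, so limma was not run there). The 3 genes higher on the spheroid array stayed 3 in number except against the mean of 2D and shGFP, where LAMB3 fell just short and 2 remained. With the median of the probe sets the 3 were ITGB5, LAMA4 and LAMB3, as ITGB8 lay below 6. Without _s_at and _x_at probe sets they were ITGB5, ITGB8 and LAMB3, as LAMA4 lay below 6. In those 2 settings 1 gene was 2-fold lower instead of 2, since ITGB4 then lay below 6. Linking genes 2-fold different between spheroid and 2D numbered 4, as they did with both other level filters, 3 with the median of the probe sets, without _s_at and _x_at probe sets or with 16 added, and 2 against the mean of 2D and shGFP. With that reference 1 integrin or laminin gene (ITGB4) was 2-fold lower on both hairpin arrays instead of 0, and 1 linking gene differed instead of 0. With 1 hairpin array left out, 0 to 3 genes were 2-fold higher and 0 to 1 lower than on shGFP, and 0 to 2 linking genes differed, the higher numbers being those without shTRIB1-2. The median over the genes that entered ranged over the alternatives from -0.023 to 0.099 for spheroid minus 2D and from 0.00 to 0.49 for the hairpins. Of 26 alternative values of the 5 genes 2-fold different in spheroid culture, 26 kept their sign and 25 stayed past 2-fold. That tally is a weak check. The level filters cannot change a gene's own value, and neither can a probe set rule that keeps the same probe set. Settings in which ITGB4, ITGB8 or LAMA4 lay below 6 gave no value and are not among the 26. No paired analysis was possible because shGFP, 2D and spheroid have 1 array each, so the groups share fewer than 2 replicate numbers.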
